A study of Mus musculus with 12 samples.

Results

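RNA levels of 8 enzymes of folate-dependent nucleotide synthesis, Ppat, Gart, Pfas, Paics, Adsl, Atic, Mthfs and Tyms, were described in whole mammary fat pads. They were taken by name, whatever their values, from 55487 genes counted in each of 12 libraries, and each was found as 1 Ensembl gene. All libraries came from female mice of the inbred strain C57BL/6. Folic acid, the synthetic form of folate, had been given in juvenile and peri-pubertal life at 5 mg/kg (6 libraries) or at 1 mg/kg (6 libraries), and tissue was taken 4 weeks later, on postnatal day 84. The right thoracic fat pad was used whole, so that fat, epithelium, vessels, immune cells and adjoining muscle can all contribute RNA. The labels do not say that the libraries of a group came from separate animals, and every p therefore measures the spread between these samples, which may be in part technical.

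Purine rings are built stepwise on ribose phosphate. Ppat performs the first committed step, Gart carries out 3 of the following reactions, Pfas and Paics continue the chain, and Adsl splits off fumarate at 1 step of this route and again on the way from IMP to AMP. Atic then closes the ring to give IMP. Gart and Atic each insert a carbon delivered by formyl-tetrahydrofolate. Mthfs returns the storage form of formyl-folate to the active folate pool. Tyms, thymidylate synthase, uses methylene-tetrahydrofolate to make dTMP, the DNA-specific pyrimidine nucleotide, and is known as an enzyme of dividing cells. Dividing cells need both routes, and skeletal muscle uses Adsl in the purine nucleotide cycle, where it takes part in the return of IMP to AMP.

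On GRCm38 in the GENCODE vM21 annotation, the assembly also called mm10, all 8 were protein-coding genes. Ppat (ENSMUSG00000029246) lay on the minus strand at chr5:76913249-76951578 and Paics (ENSMUSG00000029247) on the plus strand at chr5:76951307-76967509. These neighbours point away from each other and overlap by 272 bases of first exon, which is 8.67% of the exon bases of Paics and 6.15% of those of Ppat. Because the library kit did not mark strand, reads within that stretch cannot be assigned to either gene. Gart (ENSMUSG00000022962) lay at chr16:91621186-91646952 on the minus strand. The antisense gene Gm15964 covered 19.7% of its exon bases and was given 139 reads in all libraries together. Pfas (ENSMUSG00000020899) lay at chr11:68985697-69008460, minus strand, Adsl (ENSMUSG00000022407) at chr15:80948490-80970946, plus strand, and Atic (ENSMUSG00000026192) at chr1:71557150-71579631, plus strand. Mthfs (ENSMUSG00000066442) lay at chr9:89210676-89377713, plus strand, and Tyms (ENSMUSG00000025747) at chr5:30058202-30073617, minus strand. Tyms has a pseudogene copy, Tyms-ps, which was given at most 2 reads in a library. Mthfs has a relative, Mthfsl, and reads aligned to more than 1 place were not counted for any gene.

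The promoters of Tyms and Atic were chosen after the results were seen. Tyms was called on the proliferation level and Atic on the B cell level, both described below. Both hold an E-box, the letters CACGTG read by Myc and other factors of its class. Mthfs, also called on proliferation, holds none near its start. The site in Paics is shown as the third match, in a gene that moved the other way. Sequences are from RefSeq on GRCm38.p6, written 5′ to 3′ on the strand of the gene, with the E-box in capitals. The Tyms stretch is chr5:30073626-30073875 on the minus strand and ends at the base before the RefSeq start, with the E-box 61 bases before the start. The Atic stretch is chr1:71556906-71557155 on the plus strand, with the E-box 7 bases before the start. The Paics stretch is chr5:76951087-76951116 on the plus strand, 203 bases before the Paics start at the first base of its E-box, and it also lies inside the span of Ppat.
Tyms: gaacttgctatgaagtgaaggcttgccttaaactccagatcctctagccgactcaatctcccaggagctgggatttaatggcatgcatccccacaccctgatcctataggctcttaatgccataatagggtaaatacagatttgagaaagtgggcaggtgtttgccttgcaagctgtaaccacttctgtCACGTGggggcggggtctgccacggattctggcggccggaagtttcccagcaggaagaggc
Atic: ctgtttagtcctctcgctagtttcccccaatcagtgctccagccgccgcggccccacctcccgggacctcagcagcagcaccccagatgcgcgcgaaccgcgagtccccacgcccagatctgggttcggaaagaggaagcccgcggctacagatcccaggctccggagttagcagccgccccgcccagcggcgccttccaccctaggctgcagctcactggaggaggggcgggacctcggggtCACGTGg
Paics: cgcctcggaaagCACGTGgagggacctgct

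RefSeq windows from 250 bases before to 50 bases after a start were at hand for 7 of the 8 genes; Pfas had none. CACGTG, which is the same on both strands, occurred in the windows of Tyms, Atic and Paics and in 7.15% of 32851 mouse windows of that length. The E2F motifs TTTCCCGC, TTTGGCGC, TTTCGCGC and TTTGCCGC, searched on both strands, occurred in 2.26% of all windows and matched at 2 places in the Ppat window and at none in the other 6. A match describes the letters only.

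Between 48.2 and 75.3 M reads (M for mega) were assigned to genes in a library, and the groups were alike in depth, with means of 60.0 M (SD 8.35) for the 5 mg/kg libraries and 60.4 M (SD 7.70) for those at 1 mg/kg. Reads that fell outside annotated genes made up 5.58% to 26.6% of all reads tallied, and mitochondrial ribosomal RNA took 39.2% to 59.5% of the gene-assigned reads. Mammary epithelial markers were present in every library, with Krt8 at 20.7 to 108.9 CPM, the read count scaled to a common library size. Muscle was present in every library too, with Ckm at 562.1 to 4737 CPM. The 15 B cell markers split the libraries at a gap of 3.48 log2 units, with 3 libraries at 5 mg/kg and 4 at 1 mg/kg above it and 3 and 2 below. In bulk tissue, fewer cells of a type and less RNA per cell cannot be told apart.

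All 8 genes were expressed in every library, but at very different levels. Per kilobase of annotated exon, and thus comparable between genes, Paics stood highest at 23.0 ± 4.52 CPM per kilobase (mean ± SD over 12 libraries). Gart followed at 4.60 ± 0.467, Ppat at 4.43 ± 0.993, Adsl at 4.26 ± 1.01 and Atic at 3.42 ± 0.431 CPM per kilobase. Pfas reached 1.63 ± 0.172, Tyms 0.527 ± 0.130 and Mthfs 0.234 ± 0.0802 CPM per kilobase. The length is that of all annotated exons merged, so a gene with long rarely used exons is placed too low.

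Within a library, Paics was above Gart in 12 of 12 libraries, by 3.26-fold to 6.70-fold. Atic was above Pfas, Pfas above Tyms and Tyms above Mthfs, each in 12 of 12. No test is given, since the neighbours were taken from the order of these same libraries. The order of the others changed from library to library: Gart was above Ppat in 9 of 12, Ppat above Adsl in 8 of 12 and Adsl above Atic in 9 of 12.

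**Figure D1:**
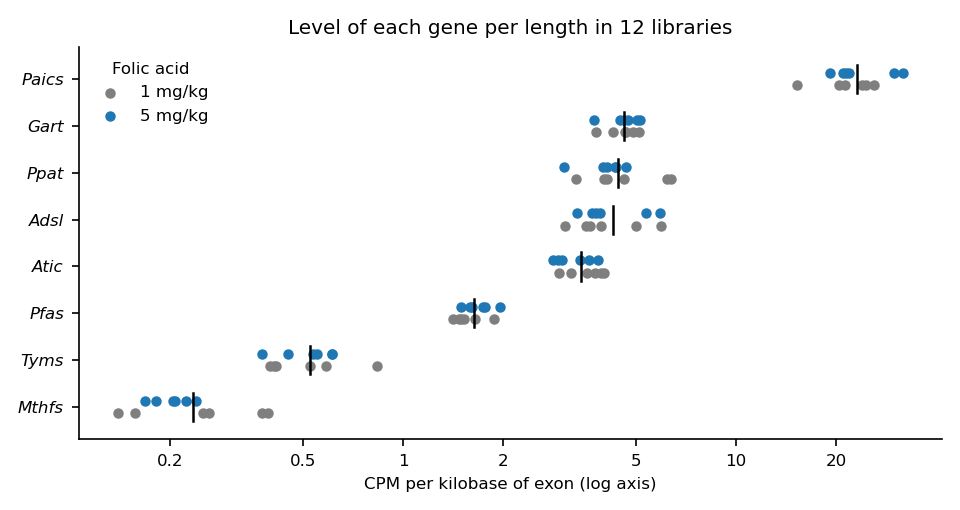
Level of each gene per length (horizontal axis, CPM per kilobase of exon, log scale) in 12 libraries. Points are libraries, grey for 1 mg/kg and blue for 5 mg/kg, and the black line is the mean over all 12; Paics sits between 15.3 and 31.7, above every other gene, while Mthfs sits between 0.139 and 0.393.

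Between the intakes no difference was detected for any of the 8 genes. Across all 18647 genes tested with edgeR's quasi-likelihood test and Benjamini-Hochberg adjustment, the share called was 0%, and 359 genes had an unadjusted p under 0.05, none of them among the 8. DESeq2 called 1 gene, Dmkn, named after its values were seen, with an adjusted p of 0.0394; it stood at 17.9 and 4.29 CPM in libraries 4 and 2 at 5 mg/kg and at most 0.421 CPM in the other 10 libraries. Of the 8, 4 had higher and 4 had lower fitted values at 5 mg/kg, and their median log2 fold change was 0.00076, beside -0.018 for all genes. Adjusted p was at least 0.943 for each. The intervals limit how large a difference could have been missed, and they are given with each gene.

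Ppat, the entry enzyme, ranged from 13.5 CPM over a median of 18.6 to 20.7 CPM at 5 mg/kg and from 14.6 over 19.2 to 28.2 CPM at 1 mg/kg. Libraries 3 and 5 at 1 mg/kg, at 28.2 and 27.4 CPM, stood above all others, and the groups overlapped. The log2 fold change of 5 against 1 mg/kg was -0.22 ± 0.17 (SE; 95% interval -0.59 to 0.14). Gart had 19.2, 24.0 and 26.5 CPM as lowest, median and highest value at 5 mg/kg and 19.5, 24.0 and 26.3 CPM at 1 mg/kg, so the groups covered nearly the same range. Its log2 fold change was 0.017 ± 0.10 (95% interval -0.21 to 0.24). Pfas lay between 11.9 and 15.6 CPM with a median of 13.3 at 5 mg/kg and between 11.2 and 14.9 CPM with a median of 11.96 at 1 mg/kg. The highest Pfas value came from library 2 at 5 mg/kg, the groups overlapped, and the log2 fold change was 0.11 ± 0.10 (95% interval -0.11 to 0.33).

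Paics, which joins 2 enzyme activities in 1 protein, lay between 60.1 and 99.3 CPM with a median of 67.9 at 5 mg/kg and between 47.9 and 81.7 CPM with a median of 70.9 at 1 mg/kg. Libraries 4 and 5 at 5 mg/kg, at 93.2 and 99.3 CPM, were above every library at 1 mg/kg, while the other 4 lay within that group's range. The log2 fold change was 0.14 ± 0.16 (95% interval -0.22 to 0.49). Adsl ranged from 18.7 over 21.7 to 33.3 CPM at 5 mg/kg and from 17.2 over 21.4 to 33.6 CPM at 1 mg/kg. In each group 2 libraries were high, 4 and 5 at 5 mg/kg (30.1 and 33.3 CPM) and 3 and 5 at 1 mg/kg (33.6 and 28.2 CPM). Its log2 fold change was 0.046 ± 0.19 (95% interval -0.37 to 0.46). Atic, the last enzyme of the route, lay between 22.6 and 30.8 CPM with a median of 25.6 at 5 mg/kg and between 23.4 and 32.0 CPM with a median of 29.3 at 1 mg/kg. Only 2 libraries at 5 mg/kg were below the lowest at 1 mg/kg, and the log2 fold change was -0.13 ± 0.11 (95% interval -0.37 to 0.12).

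Tyms had few reads, from 111 to 391 per library. It ranged from 2.30 over 3.32 to 3.74 CPM at 5 mg/kg and from 2.44 over 2.87 to 5.10 CPM at 1 mg/kg, the highest value being that of library 1 at 1 mg/kg. The log2 fold change was -0.015 ± 0.21 (95% interval -0.47 to 0.44). Mthfs was the lowest of the 8 with 50 to 221 reads per library. It lay between 1.28 and 1.83 CPM with a median of 1.57 at 5 mg/kg, inside the wider range of 1.06 to 3.004 CPM with a median of 1.96 at 1 mg/kg. Libraries 1 and 6 at 1 mg/kg, at 2.88 and 3.004 CPM, were the highest. The SD of log2 CPM was 0.184 at 5 mg/kg and 0.611 at 1 mg/kg, a difference in spread that was not tested. The log2 fold change, -0.37 ± 0.26 (95% interval -0.93 to 0.20), had the widest interval of the 8.

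**Figure D2:**
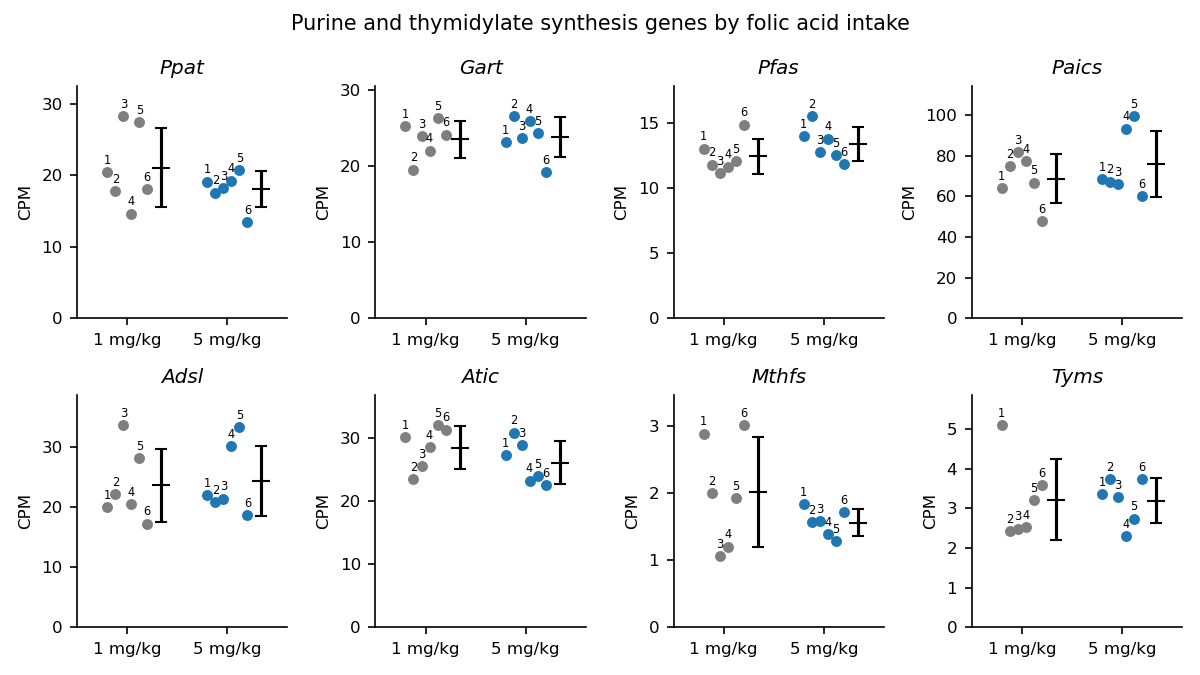
CPM of each gene (vertical axes, starting at 0) in the 6 libraries at 1 mg/kg (grey) and the 6 at 5 mg/kg (blue), numbered by library, with the mean and SD of each group in black. The groups overlap for all 8 genes; Paics is highest in libraries 5 and 4 at 5 mg/kg, Ppat in libraries 3 and 5 at 1 mg/kg.

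The 8 genes did not move together from library to library. Gart, Pfas and Atic varied least, with an SD of log2 CPM of 0.153, 0.148 and 0.184 over 12 libraries, beside a median of 0.419 over all tested genes. Paics, Ppat, Adsl and Tyms had SDs of 0.283, 0.309, 0.327 and 0.333, and Mthfs had 0.453. The steadiest ratio within the set was that of Gart to Pfas, with an SD of log2 of 0.149 and a 1.34-fold range, followed by Gart to Atic at 0.157. Neither was smaller than the SDs of both its genes, so these ratios reflect genes that varied little. Paics and Adsl kept a ratio with an SD of log2 of 0.188, smaller than the SD of either gene. Adsl and Mthfs were the least alike, and their ratio covered a 5.39-fold range.

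Paics and Ppat start side by side but were not held in a fixed ratio. The ratio of Paics CPM to Ppat CPM lay between 3.59 and 4.84 at 5 mg/kg and between 2.44 and 5.28 at 1 mg/kg. The lowest ratios, 2.44, 2.65 and 2.89, were those of libraries 5, 6 and 3 at 1 mg/kg. Across all libraries this ratio had an SD of log2 of 0.362, wider than the SD of either gene.

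Proliferation was measured as the mean log2 CPM of 22 genes of the G2 and M phases, such as Mki67 and Top2a. Tyms rose with this level and Paics fell, though Paics had an uncalled positive slope under scaling by library size alone. Mthfs passed the same threshold in 4 of 12 fits that left 1 library out. The slopes below come from edgeR's quasi-likelihood test with intake in the same fit, as log2 change per log2 unit of the level, with p-values adjusted over 18647 genes. Proliferation ran from -0.10 log2 CPM in library 5 at 5 mg/kg to 2.27 in library 1 at 1 mg/kg. No difference between intakes was detected (difference -0.036, exact permutation p = 0.942, adjusted over 9 marker lists 0.942). Of the 8 genes, 3 were called, 2 higher and 1 lower, beside 40.0% of all genes in either direction and 22.9% higher. The share of the 8 that was called lay near that of all genes.

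Tyms was highest, at 5.10 CPM, in the library with the highest proliferation level, and lowest, at 2.30 CPM, in library 4 at 5 mg/kg, where the level was 0.70. Its slope was 0.34 ± 0.094 (SE, adjusted p = 0.0135), which comes to a 1.76-fold rise over the range of levels seen. Without library 1 at 1 mg/kg the adjusted p was 0.0533. Library 6 at 5 mg/kg, with a B cell level of -0.77 and a proliferation level of 1.63, held Tyms at 3.73 CPM, the third highest value. Library 3 at 5 mg/kg and library 5 at 1 mg/kg had higher proliferation levels, 1.92 and 1.98, and lower Tyms, 3.28 and 3.21 CPM. Mthfs had a slope of 0.38 ± 0.14 (adjusted p = 0.0446).

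Paics had the opposite slope, -0.27 ± 0.074 (adjusted p = 0.0147). Its highest value, 99.3 CPM, was in the library with the lowest proliferation level, and its lowest, 47.9 CPM, was in library 6 at 1 mg/kg with a level of 1.75. Along the same level 15 of 15 B cell and 16 of 16 T cell genes were called higher, beside 4264 of 18647 genes of all. Called lower were 10 of 12 adipocyte genes and 2 of 8 brown fat genes, beside 3199 of 18647. Library 5 at 5 mg/kg had the highest brown fat level, 6.04, and an adipocyte level of 8.60 log2 CPM in a range of 6.92 to 8.89. The part of fat in the slope of Paics was not tested. Without that library the adjusted p of Paics was 0.0592. Under scaling by library size alone, which raises the median slope of all genes from -0.024 to 0.28, the slope of Paics was 0.083 (adjusted p = 0.160), below that median under both scalings. Adsl gave -0.21 (adjusted p = 0.143), Atic 0.13 (adjusted p = 0.107), Pfas 0.078 (adjusted p = 0.323), Gart 0.050 (adjusted p = 0.551) and Ppat 0.027 (adjusted p = 0.864). When the B cell level was added to the fit, none of the 8 passed and 51 genes of all did. Tyms then had a slope of 0.33 (adjusted p = 0.223) and Paics -0.30 (adjusted p = 0.197), close to their slopes without it, and 65.0% of the variance of the B cell level was shared with proliferation and intake, so the parts of the levels cannot be told apart with 12 libraries. None of the 8 passed with the muscle level or the share of reads outside genes in the fit either. Tyms then had slopes of 0.25 (adjusted p = 0.0899) and 0.27 (adjusted p = 0.104), Paics -0.18 (adjusted p = 0.0860) and -0.11 (adjusted p = 0.196), and Mthfs 0.23 (adjusted p = 0.276) and 0.18 (adjusted p = 0.381).

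Along the B cell level, the mean log2 CPM of 15 genes such as Ms4a1 and Cd79a, Atic was the single one of the 8 to pass, beside 39.5% of all genes in either direction and 22.5% higher. That level ran from -1.34 to 6.05 log2 CPM. No difference between intakes was detected (difference -0.76, exact permutation p = 0.729, adjusted 0.942), with SDs of 3.26 at 5 mg/kg and 3.51 at 1 mg/kg. Adipocyte and brown fat levels were higher at 5 mg/kg by 0.52 and 1.07 log2 CPM (exact permutation p = 0.117 and 0.255, adjusted 0.942 each). Fitted values were higher there for 12 of 12 adipocyte and 7 of 8 brown fat genes, none called, beside 8793 of 18647 genes of all. Atic had a slope of 0.045 ± 0.012 (adjusted p = 0.0115), a 1.26-fold rise over the whole range, and passed in each of the 12 fits that left 1 library out. It did not pass with the proliferation level added (0.056, adjusted p = 0.0984), among the 7 libraries above the gap alone (0.093, adjusted p = 0.187) or without a filter on low counts (0.045, adjusted p = 0.0957). It lay between 25.6 and 32.0 CPM with a median of 30.1 in the 7 libraries above the gap and between 22.6 and 28.5 CPM with a median of 23.4 in the 5 below. Along the B cell level 16 of 16 T cell and 20 of 22 proliferation genes were called higher, beside 4188 of 18647 genes of all. The slope of Atic is thus not particular to B cells. Called lower were 10 of 12 adipocyte genes and 7 of 14 epithelial genes, beside 3169 of 18647. The part of these fat and epithelial markers in the slope of Atic was not tested. One library below the gap, library 4 at 1 mg/kg, had 28.5 CPM, within the range of those above.

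The slope of Tyms on the B cell level was 0.069 (adjusted p = 0.0582) and that of Paics was -0.051 (adjusted p = 0.0823), and both passed without library 6 at 5 mg/kg (adjusted p = 0.0125 and 0.0132). The other 5 had adjusted p-values from 0.130 to 0.512. Tyms was spread from 2.49 to 5.10 CPM above the gap and from 2.30 to 3.73 CPM below it. The median slope of the 8 was 0.032, beside -0.010 for all genes.

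**Figure D3:**
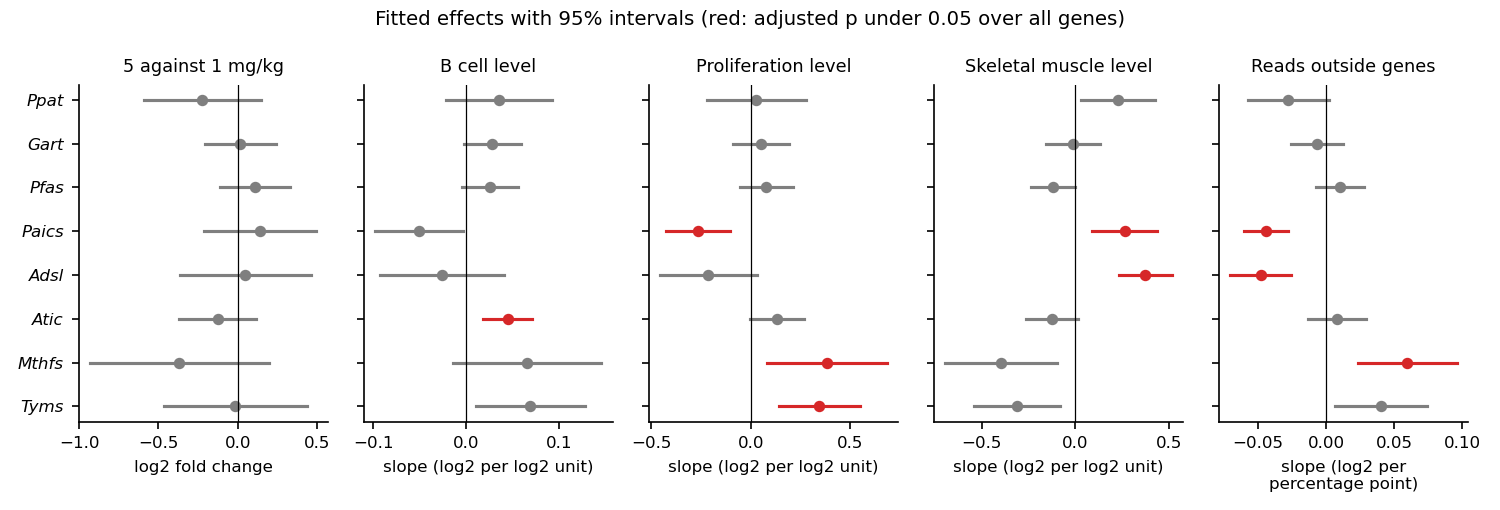
Fitted effects on the 8 genes with 95% intervals, from left to right the difference between intakes (log2 fold change) and the slopes on B cell, proliferation and skeletal muscle level (log2 per log2 unit) and on the percentage of reads outside genes (log2 per percentage point). Red marks an adjusted p under 0.05 over all genes; no gene is red for intake, 1 for B cell level, 3 for proliferation, 2 for muscle and 3 for reads outside genes.

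Adsl and Paics rose with skeletal muscle content, a call that neither kept under scaling by library size alone, where the slope of Paics was negative. The level, the mean log2 CPM of 14 muscle genes such as Acta1 and Ckm, ran from 9.20 in library 6 to 11.8 in library 3, both at 1 mg/kg. No difference between intakes was detected (difference 0.096, exact permutation p = 0.829, adjusted 0.942). The slope test on this level was added after the data had been seen. Of the 8 genes, 2 passed, both higher, beside 16.3% of all genes in either direction and 10.1% higher.

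Adsl had a slope of 0.37 ± 0.064 (adjusted p = 0.00283), a 1.99-fold rise over the range of muscle levels, and passed in 12 of 12 fits that left 1 library out. The 4 libraries with Adsl at 28.2 CPM or more had muscle levels of 10.9 to 11.8, library 2 at 1 mg/kg had 22.2 CPM at a level of 10.9, and the lowest Adsl value, 17.2 CPM, belonged to the library with the lowest muscle level. Under scaling by library size alone, which lowers the median slope of all genes from -0.048 to -0.40, the slope of Adsl was 0.11 (adjusted p = 0.529) and that of Paics -0.082 (adjusted p = 0.630), both above that median. Paics had a slope of 0.26 ± 0.079 (adjusted p = 0.0431) and passed in 3 of those 12 fits. Ppat had 0.23 (adjusted p = 0.0948), and 0.35 (adjusted p = 0.00115) once the B cell level was in the fit. Tyms (-0.31, adjusted p = 0.0636) and Mthfs (-0.40, adjusted p = 0.0658) had negative slopes that did not pass.

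Brown fat markers lay high in some of the same libraries. Along the muscle level 8 of 8 had positive slopes, beside 8206 of 18647 genes of all. Of the 8 markers 2 were called, beside 10.1% of all genes called higher. Libraries 5 and 4 at 5 mg/kg and 3 at 1 mg/kg had the highest brown fat levels (6.04, 5.68 and 5.11 log2 CPM, of a range from 0.858) and also the highest Adsl, 33.3, 30.1 and 33.6 CPM. Ucp1, the uncoupling protein that marks brown fat, stood at 790.4, 869.2 and 408.9 CPM in them. Library 1 at 5 mg/kg had Ucp1 at 563.2 CPM and a brown fat level of 4.95, but Adsl at 22.0 CPM. Library 5 at 1 mg/kg had Adsl at 28.2 CPM at a brown fat level of 3.37. The part of brown fat in the slopes of Adsl and Paics was not tested.

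The partners of Adsl in the purine nucleotide cycle were among the genes that followed muscle. Adssl1, the muscle form of adenylosuccinate synthase, which makes the substrate of Adsl, had a slope of 0.95 ± 0.054 (adjusted p = 6.81e-07). Ampd1, the muscle form of AMP deaminase, had 0.99 ± 0.096 (adjusted p = 3.42e-05). Both thus changed nearly in proportion to the muscle list, whereas the slope of Adsl was smaller. Since both are muscle forms, their slopes are no test of why Adsl had a slope, and the reason was not tested. Adssl1 ranged from 22.7 to 117.7 CPM and Ampd1 from 31.3 to 277.4 CPM, while Adsl ranged from 17.2 to 33.6 CPM. Adss, the form found in most tissues, ranged from 31.7 to 40.8 CPM, and its slope was -0.11 (adjusted p = 0.0998).

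**Figure D4:**
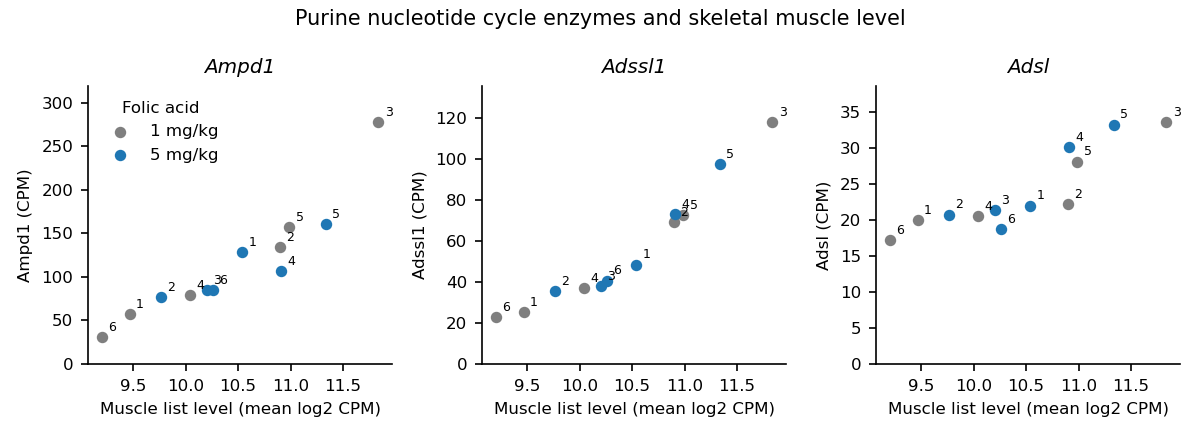
CPM (vertical axes, starting at 0) of Ampd1, Adssl1 and Adsl against the skeletal muscle list level (horizontal axis, mean log2 CPM) in 12 libraries, grey for 1 mg/kg and blue for 5 mg/kg, numbered by library. Library 3 at 1 mg/kg has the highest muscle level and the highest value of all 3 genes, and library 6 at 1 mg/kg the lowest of all 3.

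Paics and Adsl were lower, and Mthfs higher, in libraries with a larger share of reads outside annotated genes. This share was highest in library 6 at 1 mg/kg at 26.6%, followed by library 6 at 5 mg/kg at 20.8% and library 1 at 1 mg/kg at 18.7%, and lowest in library 5 at 5 mg/kg at 5.58%. Of the 8 genes 3 passed this test, also added after the data had been seen, beside 26.9% of all genes. Paics fell by 0.044 per percentage point (SE 0.0072, adjusted p = 0.00171) and Adsl fell by 0.048 (SE 0.010, adjusted p = 0.00581), each in 12 of 12 fits that left 1 library out. Mthfs rose by 0.060 per percentage point (SE 0.017, adjusted p = 0.0210), and passed in 10 of 12 such fits, the exceptions being those without library 3 (0.0537) or library 6 (adjusted p = 0.109) at 1 mg/kg. Along the same share 12 of 14 muscle genes, 7 of 8 brown fat genes and 2 of 12 adipocyte genes were called lower, and 1 of 22 proliferation genes was called higher. Of all 18647 genes, 2849 were called lower and 2170 higher. With the muscle level and this share in the same fit, none of the 8 passed on either: Adsl had 0.26 per unit of muscle level (adjusted p = 0.259) and -0.021 per percentage point (adjusted p = 0.382), and Paics had 0.044 (adjusted p = 0.864) and -0.040 (adjusted p = 0.0612). Under scaling by library size alone, where the median slope of all genes was 0.055 per percentage point, Paics had 0.0066 and Adsl 0.0021, both uncalled and both still below that median. With 12 libraries the parts of muscle and of this share cannot be told apart, and the part of brown fat was not tested.

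**Figure D5:**
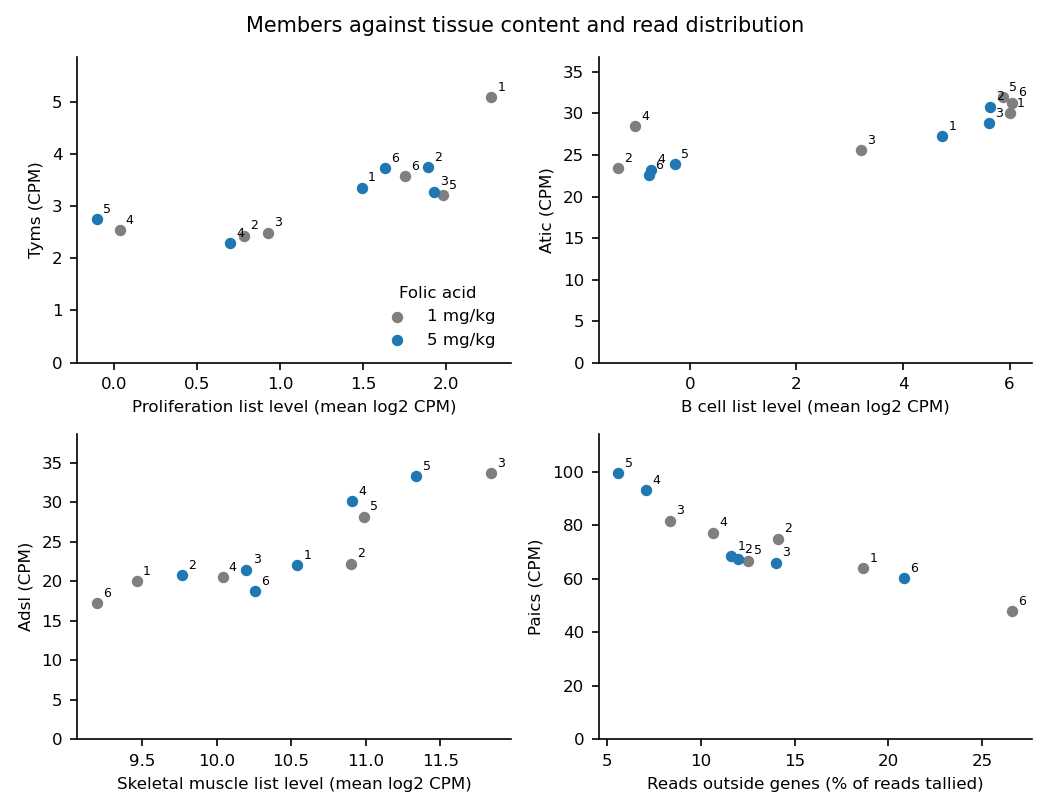
CPM (vertical axes, starting at 0) of Tyms against proliferation level, Atic against B cell level, Adsl against skeletal muscle level and Paics against the percentage of reads outside genes in 12 libraries, numbered, grey for 1 mg/kg and blue for 5 mg/kg. Tyms peaks at 5.10 CPM in library 1 at 1 mg/kg, Adsl at 33.6 CPM in library 3 at 1 mg/kg, and Paics falls from 99.3 CPM at 5.58% to 47.9 CPM at 26.6%.

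For no gene of the neighbouring pathways was a difference between the intakes detected either. Among 13 genes of thymidylate and deoxynucleotide supply, the partners of Tyms, 3 had higher and 10 had lower fitted values at 5 mg/kg, none of them called, and the median log2 fold change was -0.045. Along the B cell level 9 of the 13 were called, all higher, beside 39.5% of all genes in either direction and 22.5% higher. Along proliferation 6 were called, all higher, beside 40.0% in either direction and 22.9% higher. Dck, which phosphorylates deoxynucleosides, had the smallest p on the B cell level (slope 0.23, adjusted p = 2.00e-06). Samhd1, which breaks down deoxynucleotides and is the most abundant of the list, had a slope of 0.73 on proliferation (adjusted p = 0.000735). Tk1, the cytosolic thymidine kinase, and Rrm2, a subunit of ribonucleotide reductase, had slopes of 1.10 and 1.23 on proliferation (adjusted p = 0.000748 each), beside 0.34 for Tyms. Rrm2 ranged from 0.765 to 5.70 CPM, a wider range than that of Tyms.

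Among 11 tested genes that supply or use formyl-folate, 8 had higher and 3 had lower fitted values at 5 mg/kg, none called (median log2 fold change 0.11). Along the B cell level 3 were called higher and 4 lower, beside 39.5% of all genes in either direction. Mthfd1l and Mthfd2, mitochondrial enzymes of 1-carbon metabolism, the first of which releases formate, had slopes of 0.36 and 0.32 (adjusted p = 8.23e-06 and 3.85e-06). Aldh1l1, which removes formyl-folate and is the most abundant of the list, had -0.15 (adjusted p = 0.000482). Their ranges did not overlap across the B cell gap: Mthfd2 lay between 2.24 and 7.42 CPM above it and between 0.806 and 1.95 CPM below, and Aldh1l1 between 17.4 and 42.7 CPM above and between 43.6 and 80.4 CPM below. All 8 enzymes themselves did overlap across the same gap. So did Mthfd1, Aldh1l2, Mthfsl, Mthfsd, Fpgs and Slc19a1 of this list, while Mthfd2l and Ggh did not. The share of all genes that overlap was not computed, so the overlap cannot be read as a trait of the 8.

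Of all genes, 22.5% were called higher along the B cell level and 22.9% along proliferation. Of 9 genes that feed ribose phosphate into the route or lead from IMP to AMP and GMP, 2 were called along the B cell level and 2 along proliferation, all higher, which lay near those shares. They were the same 2 genes, Prps2, which makes the ribose phosphate donor used by Ppat, with slopes of 0.16 (adjusted p = 5.29e-05) and 0.64 (adjusted p = 0.000787), and Impdh2, of the GMP branch, with 0.038 (adjusted p = 0.0414) and 0.15 (adjusted p = 0.0425). Of 12 genes of purine salvage and breakdown, 5 were called along the B cell level, 2 higher and 3 lower, and 6 along proliferation, 2 higher and 4 lower, shares near the 39.5% and 40.0% of all genes. Xdh, xanthine dehydrogenase, fell along the B cell level (slope -0.12, adjusted p = 0.000318), and Adk, adenosine kinase, fell along proliferation (slope -0.46, adjusted p = 0.00151). Of 7 tested genes of pyrimidine synthesis, 2 were called along the B cell level, both higher, and 2 along proliferation. The shares of all genes in either direction were 39.5% and 40.0%. Along proliferation Ctps, CTP synthase, was higher (slope 0.21, adjusted p = 0.0270) and Cmpk1, a UMP and CMP kinase, lower (slope -0.25, adjusted p = 0.0101).

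Of 7 genes of the Myc family, the factors known to bind the E-box, 5 were called along the B cell level, 4 higher and 1 lower, and 4 along proliferation, 3 higher and 1 lower, beside 39.5% and 40.0% of all genes. Myc itself had slopes of 0.11 (adjusted p = 0.00793) and 0.55 (adjusted p = 0.00179), and between intakes none of the 7 was called (median log2 fold change -0.18). Of all 18647 genes, 3169 were called lower along the B cell level and 3199 along proliferation. Of 8 genes of serine synthesis and the ATF4 response, 2 were called lower along the B cell level and 1 lower along proliferation. Asns, asparagine synthetase, was the one called on both (slopes -0.13 and -0.48, adjusted p = 0.00374 and 0.0149).

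The genes whose level ran most parallel to each of the 8 were found among 12645 genes by the SD of the log2 ratio over 12 libraries, as a description with no test. The nearest to Tyms was Pola1, the catalytic subunit of DNA polymerase alpha, with an SD of 0.156, followed by Zbtb46 at 0.159 and Klhl36 at 0.168. Nearest to Adsl were Tubb4b (0.0604), Metrn and Hikeshi, and nearest to Paics were Eif2b1 (0.0578), a subunit of a translation initiation factor complex, Rab5b and Fnta. Atic ran closest to Wdr46 (0.0587), Plekha3 and Nras. Gart ran closest to Trdmt1 (0.0429), Ccndbp1 and Trappc10, and Pfas to Pou6f1 (0.0806), Rpap1 and Rptor. Ppat (Ifngr2 at 0.103, then Rrp12 and Nt5c3) and Mthfs (Rbm12 at 0.172, then Scai and Msantd2) had less close neighbours. Small SDs are reached more easily by steady genes, and the SDs of the 8 themselves ran from 0.148 to 0.453.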

How the data were processed

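RNA of 12 whole mammary fat pads was sequenced from libraries made, per the labels, by TruSeq RNA Sample Prep Kit v2, which selects polyadenylated RNA without marking strand. The files the authors deposited hold unnormalized counts of reads for each gene. STAR, mm10 and HTSeq 0.6.1 were used, per the submitters' processing notes, with annotation and strand setting not given in the sources used here. Lines of reads given to no gene (16.7% to 35.7% of reads tallied) stayed out of library sizes and tests. Symbols came from GENCODE vM21 for 55141 of 55487 IDs. No pair of libraries agreed within sampling noise (lowest chi-square per degree of freedom 41.7 over 66 pairs).

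edgeR 4.0.16 in R 4.3.3 was used with filterByExpr, TMM scaling and the robust quasi-likelihood test, with Benjamini-Hochberg adjustment over 18647 genes at a threshold of 0.05. TMM factors were applied to the deposited counts to give CPM, and SEs were obtained from each F statistic. The level of a list in a library is its tested genes' mean log2 CPM (prior count 2). For 9 marker lists these levels were compared between intakes with an exact permutation test (two-sided, 924 assignments, smallest p 0.00216). Slope fits held the level and intake. Precision over all genes is given by the 95% interval of the intake fold change, whose half-width had a median of 0.53 log2.

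The members and lists were chosen with earlier results of these data known. All 8 members are named whatever their values. Of each pathway list the rule allows the genes that passed with the smallest p, at most 3 a test, and the most abundant one, and the text gives some of these, together with Adss, chosen after its values were seen. For each member the 3 genes with the steadiest ratio to it are named (mean CPM at least 1). Alternatives were other scalings and filters, DESeq2 1.42.0, limma-voom (limma 3.58.1), covariates, and leaving out each library. The slopes on muscle level and on reads outside genes were added after seeing the data, as were the fits without the pair of libraries with most reads outside genes and the fits that hold those measures together. The scripts were tested on simulated data.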

Additional observations from a re-analysis of the deposited data

How the results depend on the processing

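Of 1328 values recomputed under alternatives, 1102 kept their direction and side of the threshold or stayed within the stated margin. There were 73 that changed sign, and 70 of those passed no threshold under either setting. Under no setting run was a difference between intakes detected for any of the 8 genes. No paired analysis was possible because the labels give no replicate numbers and nothing ties a library of 1 intake to one of the other. The cause of the changes below was not tested, except that fits on fewer libraries have less power by construction. Depth limits Tyms and Mthfs most, with 111 and 50 reads in their lowest libraries.

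Intake. DESeq2 called 1 gene. Gart changed sign with upper quartile scaling (-5.4e-05), library size alone (-0.15), limma-voom with quality weights (-0.011) and reads outside genes as covariate (-0.0093). Tyms changed sign with limma-voom (0.011) and with the B cell (0.063), proliferation (0.022), B cell plus proliferation (0.024), T cell (0.064), adipocyte (0.21), skeletal muscle (0.029) or outside-gene (0.13) covariate, and among the libraries below the B cell gap (0.25). Adsl changed sign with library size alone (-0.12), limma-voom with quality weights (-0.039), the adipocyte (-0.040) or outside-gene (-0.12) covariate and above the B cell gap (-0.18). Paics did so with library size alone (-0.027), the adipocyte (-0.052) or outside-gene (-0.0086) covariate, Pfas with library size alone (-0.054), Atic above the gap (0.0015) and Ppat below it (0.16). With library size alone the differences in epithelial (-0.11) and muscle (-0.064) level also changed sign; that scaling moved the median fold change of all genes by -0.16.

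B cell slope. The count of the 8 called, 1 in the main analysis, was 2 with upper quartile scaling, DESeq2, no intake term, the epithelial level or the muscle level added, 3 with the T cell level in its place, with reads outside genes added or without the pair of libraries richest in such reads, 4 with limma-voom with quality weights and 5 with library size alone. It was 0 without a filter, with the proliferation level added (2353 genes of all) and above the B cell gap (3528 genes). Sign changed for Paics with library size alone (0.010) and proliferation added (0.011), for Adsl with library size alone (0.032), proliferation (0.049), outside-gene reads (0.0049) or muscle (0.014) added, for Mthfs with proliferation added (-0.017) and for Ppat with epithelium added (-0.0020) and above the gap (-0.15).

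Proliferation slope. The count, 3, was 6 with library size alone and 5 with limma-voom with quality weights. It was 0 with the B cell level (51 genes of all), outside-gene reads (4337) or the muscle level (4483) added and above the B cell gap, where Ppat changed sign (-0.28) and edgeR called 0 genes of all (4263 at an unadjusted p under 0.05). Sign changed with library size alone for Paics (0.083) and Adsl (0.11), with the B cell level for Gart (-0.13), Atic (-0.054), Pfas (-0.021) and Ppat (-0.25), and with outside-gene reads for Adsl (0.018). Mthfs passed in 9 of 17 alternatives that kept each library or left out several. It also failed with DESeq2 size factors in edgeR (adjusted p = 0.0503), TMM without mitochondrial genes (0.0529), no filter (0.0944) and without the pair of libraries richest in outside-gene reads (0.0570).

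Muscle slope. The count, 2, was 0 with library size alone (286 genes of all) and with outside-gene reads added (494), 4 with DESeq2 and 1 without the pair of libraries richest in outside-gene reads (1149 genes). Sign changed for Gart with DESeq2 size factors in edgeR (0.016), TMM without mitochondrial genes (0.020), DESeq2 (0.016) and the B cell level added (0.044), and with library size alone for Paics (-0.082) and Ppat (-0.013).

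Outside-gene slope. The count, 3, was 5 with library size alone (8705 genes of all) and 0 with the muscle level added (870). Sign changed with library size alone for Gart (0.043, adjusted p = 0.0472), Paics (0.0066), Ppat (0.022) and Adsl (0.0021), for Atic with the B cell (-0.0015) or muscle (-0.012) level added, for Pfas with muscle added (-0.0053) and for Gart without the pair of libraries (0.00086).

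Leaving out each library in turn, the intake fold change ran from -0.073 to 0.16 for Tyms, -0.020 to 0.071 for Gart and -0.053 to 0.17 for Adsl. The count of the 8 called ran from 1 to 3 on the B cell level, 1 to 3 on proliferation, 1 to 4 on muscle and 2 to 4 on outside-gene reads. The counts over all genes ran from 921 (without library 3 at 1 mg/kg) to 5649 (without library 4 at 1 mg/kg) on muscle and from 2227 (without library 6 at 1 mg/kg) to 6755 on outside-gene reads. Slopes that changed sign ran from -0.10 to 0.12 for Ppat on proliferation, -0.031 to 0.013 for Gart on muscle, and -0.015 to 0.0018 for Gart and -7.4e-05 to 0.020 for Pfas on outside-gene reads. Paics stayed called on muscle without library 6 at 5 mg/kg, 4 at 1 mg/kg or 5 at 1 mg/kg, and Mthfs on proliferation without library 6 at 5 mg/kg or 2, 3 or 5 at 1 mg/kg. Adsl passed on proliferation without library 4 at 1 mg/kg (-0.34, adjusted p = 0.0378), as did Tyms and Mthfs on muscle without library 4 or 5 at 1 mg/kg and Ppat on outside-gene reads without library 4 at 1 mg/kg.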
